A study of Mus musculus with 6 samples.

Results

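The protein-coding genes of the cytosolic ribosome were examined in hypoxic neonatal mouse cardiomyocytes with and without β-sitosterol (β-SITO), a plant sterol. Members were all protein-coding rows of the count table whose symbol has the form of a ribosomal protein name of the large (Rpl, Rplp) or small (Rps, Rpsa) subunit, with the Rps6k kinases left out. This gave 83 of 57010 genes, 51 of the large and 32 of the small subunit. Of these, 80 genes (48 large, 32 small) had at least 10 counts in 3 or more libraries and were tested. The other 3 were Rpl10l, at 0 counts in every library, Rpl39l, with 5 to 9 counts per library, and Rpl24, with 2 to 9 counts per library.

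RNA-seq was performed on NMCMs, primary cardiomyocytes that the study isolated from C57BL/6 pups of 1 to 3 days of age and separated from fibroblasts by differential adhesion. All 6 libraries were of hypoxic (HO) cells. Libraries V1, V2 and V3 formed the HO + Vehicle group and T4, T5 and T6 formed the HO + β-SITO group. For these libraries the sources used here give neither the β-SITO dose nor the duration of hypoxia, and no normoxic library was analysed here. Because no source says that the libraries of a group came from separate cultures, p-values measure only the spread between these samples.

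The libraries held 16694734 to 18460522 counts. Markers of cardiomyocytes were present in every library, with a summed level (in CPM, counts scaled to library size) of 4744 to 5594 under HO + Vehicle and 4130 to 6688 under HO + β-SITO. Fibroblast markers were higher in sum than those of cardiomyocytes in all libraries, at 29640 to 30960 CPM against 44140 to 45230 CPM, and 4 of 7 rose while 2 fell. Of the macrophage markers 6 of 8 rose and 1 fell (1189 to 1307 against 2330 to 2835 CPM), and all 6 endothelial (189.6 to 218 against 767.1 to 806.7 CPM) and all 4 smooth muscle markers rose (546.5 to 589.5 against 1062 to 1243 CPM). Of the cardiomyocyte markers 3 of 8 rose and 1 fell. Among all 14799 genes tested, 33% were called higher and 33.8% lower. No marker was at 0 in every library. The part of these cell types in the values below was not tested, and in bulk RNA fewer cells of a type and less RNA per cell cannot be told apart.

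The ribosome is made of a large and a small subunit, each an rRNA scaffold covered by ribosomal proteins that are needed in nearly equal numbers. The small subunit decodes the mRNA and the large subunit forms the peptide bond. Ribosomal protein mRNAs belong to the TOP mRNAs, which begin with a C followed by a run of pyrimidines and whose translation is controlled by the kinase complex mTORC1 through Larp1. In the heart, ribosome production is known to rise with the growth of cardiomyocytes.

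Ribosomal protein mRNAs took up a larger part of the library in the HO + β-SITO group. The 83 genes held 2.95%, 3.55% and 3.13% of all counts in V1, V2 and V3, and 4.39%, 3.88% and 3.93% in T4, T5 and T6. The groups did not overlap. The means were 3.21% ± 0.312 and 4.07% ± 0.279 (SD, n = 3 each), a ratio of 1.27, with p = 0.1 in a two-sided exact permutation test, the smallest p that 3 against 3 libraries can give. Large subunit genes held 1.66% to 1.98% against 2.20% to 2.47% and small subunit genes 1.29% to 1.57% against 1.68% to 1.92%. Large subunit counts per small subunit count were 1.29, 1.26 and 1.28 in V1, V2 and V3 against 1.28, 1.31 and 1.30 in T4, T5 and T6, and the groups overlapped (p = 0.2, exact permutation test). Mitochondrially encoded genes held 1.3%, 1.19% and 1.32% of counts in V1, V2 and V3 and 1.87%, 2.22% and 2.26% in T4, T5 and T6, again with no overlap. Without their counts in the denominator the difference in ribosomal protein share was 0.901 percentage points in place of 0.854. The difference depended on the scaling of the libraries. As a share of the TMM effective library size, in which a trimmed mean sets the libraries to a common level, it was 0.483 percentage points, and the groups overlapped (p = 0.2, exact permutation test).

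**Figure D1:**
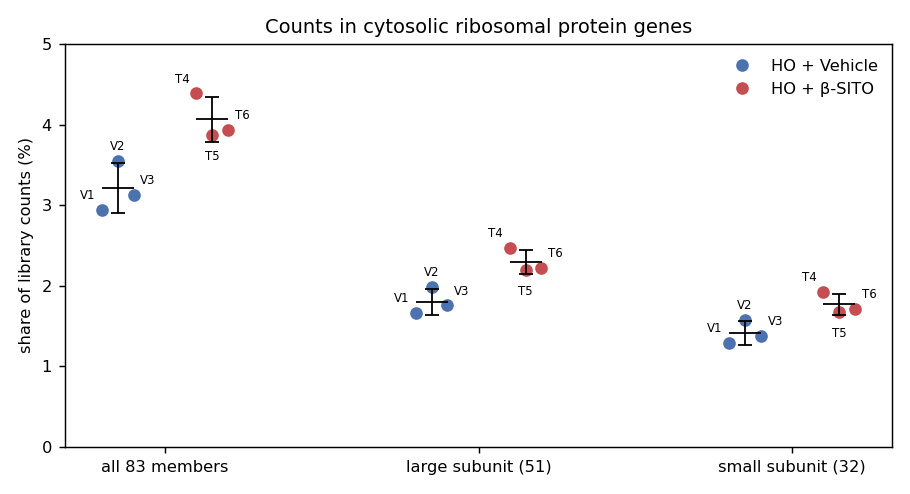
Share of library counts (%, y axis, from 0) in all 83 ribosomal protein genes and in the genes of each subunit, with 1 point per library (blue, HO + Vehicle; red, HO + β-SITO), the mean as a horizontal line and ±1 SD as bars. All HO + β-SITO points lie above the HO + Vehicle points, and V2 (3.55%) and T4 (4.39%) are the highest of their groups.

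Gene by gene, the rise was small and broad. With TMM scaling, 40 of the 80 genes (50%) rose, 4 (5%) fell and 36 did not pass the test (edgeR quasi-likelihood test, adjusted p under 0.05). Across all 14799 genes tested, 33% were called higher and 33.8% lower. The fold change was positive for 71 genes and negative for 9, with a median log2 fold change of 0.19 (1.14-fold) and quartiles of 0.079 and 0.28. The median over all genes tested was -0.0073. With library size only and with upper quartile scaling, 63 genes were higher and 1 lower, with medians of 0.336 and 0.33, while the medians over all genes moved to 0.141 and 0.136. No ribosomal protein gene passed the more than 2-fold threshold in either direction, against 12.8% of all genes higher and 10.1% lower. The HO + β-SITO libraries all lay above the HO + Vehicle libraries for 32 genes (40%) and all below for 3, against 34.8% and 35.8% of all genes tested. Rpl3l is counted among these 32 and among the 71. It passed the minimum of 10 counts only through its HO + β-SITO libraries, so its direction cannot be separated from the filter. Rps10 (log2 fold change -0.13) and Rpl13a (0.031) are also among the 80, although their levels are not read as expression because of annotation overlap. Neither passed the test, and the groups overlapped for both.

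Both subunits held genes of each kind. Of the 48 large subunit genes 25 rose, 2 fell and 21 did not pass the test, with a median log2 fold change of 0.20. Of the 32 small subunit genes 15 rose, 2 fell and 15 did not pass, with a median of 0.17. The median over the 80 genes depended on single libraries of both groups. Without T4, the library with the highest ribosomal protein share, it was 0.12, with 32 genes higher and 4 lower. Without V1 it was 0.14, also with 32 higher and 4 lower. Without V2 it was 0.27, with 50 higher and 3 lower. Without V2 and T4 together it was 0.18, with 49 higher and 3 lower. In 76 of 78 members above 10 CPM, V2 exceeded the mean of V1 and V3, by a median of 0.22 on the log2 scale. T4 exceeded the mean of T5 and T6 in 76 of 78, by a median of 0.18.

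**Figure D2:**
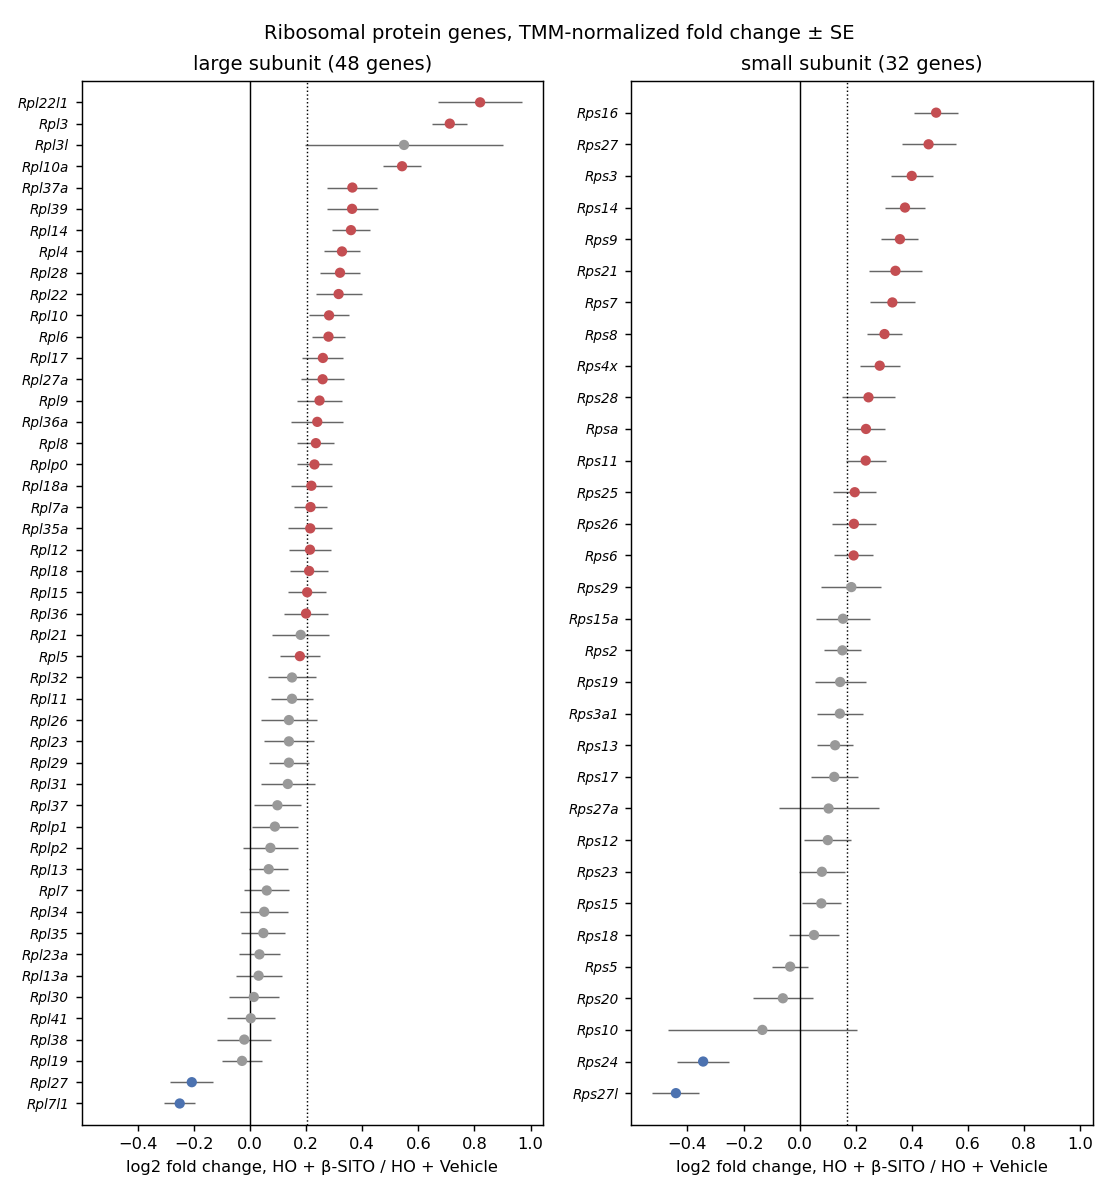
log2 fold change (HO + β-SITO over HO + Vehicle, x axis) ± SE of the 48 large and 32 small subunit genes tested, ordered by value, with genes that rose in red, genes that fell in blue and the others in grey. The dotted lines mark the medians (0.20 and 0.17), and 71 of the 80 points lie to the right of 0.

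Genes that departed from the family total were sought with a second fit. This fit, which set each library to its sum of ribosomal protein counts, called 5 of the 80 genes higher, 4 lower and 71 neither, against 21.4% and 40.4% of all genes tested called higher and lower. The counts depended on the libraries, with 2 higher and 4 lower without V3, 3 and 4 without T5 or without T6, 8 and 7 without V2, and 11 and 13 without V2 and T4. In that fit the median over all genes was -0.20, while that of the family is set near 0 by the scaling. The 5 genes above the family total were Rpl3, Rpl10a, Rpl22l1, Rps16 and Rps27, and the 4 below it were Rpl7l1, Rpl27, Rps24 and Rps27l. Coordinates below are those of the deposited table on GRCm39.

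Rpl3, whose protein reaches towards the peptidyl transferase centre of the large subunit, lies at chr15:79961992-79976069 on the minus strand. It was at 549.5, 595.2 and 560.1 CPM in V1, V2 and V3 and at 989.4, 888 and 915.2 CPM in T4, T5 and T6. The groups were far apart compared with the spread within them. The log2 fold change was 0.71 (SE 0.062, adjusted p = 7.45e-08), and 0.52 relative to the family total (adjusted p = 6.81e-05).

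Rpl10a, the protein of the L1 stalk near the exit site of the tRNA, lies at chr17:28547445-28550007 on the plus strand. Its level was 240, 280.5 and 238.4 CPM against 381.8, 366.3 and 357.2 CPM, with no overlap. The log2 fold change was 0.54 (SE 0.068, adjusted p = 4.54e-06), and 0.35 relative to the total (adjusted p = 0.00564). This second value lost its call without V3 (0.32, adjusted p = 0.0532).

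Rpl22l1, a paralog of the RNA-binding protein Rpl22, lies at chr3:28859585-28861573 on the plus strand. It was at 35.3, 42.5 and 41.5 CPM in V1, V2 and V3, and at 93.8, 57 and 59.4 CPM in T4, T5 and T6. The groups did not overlap, and T4 stood above T5 and T6. The log2 fold change was 0.82 (SE 0.149, adjusted p = 0.00017), and without T4 it was 0.55 (adjusted p = 2.47e-06).

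In the small subunit, Rps16 (chr7:28050077-28052580, plus strand), a head protein whose tail reaches the tRNA in the P site, was at 238.6, 299.3 and 251.5 against 389.8, 356 and 360 CPM. All HO + β-SITO libraries were higher, with a log2 fold change of 0.49 (SE 0.078, adjusted p = 5.03e-05). Rps27 (chr3:90119829-90120958, minus strand), a zinc-binding protein, was at 207.2, 273.5 and 212.3 against 352.7, 306.5 and 293.5 CPM, again with no overlap. Its log2 fold change was 0.46 (SE 0.096, adjusted p = 0.000589). Relative to the family total the values were 0.30 for Rps16 (adjusted p = 0.0177) and 0.27 for Rps27 (adjusted p = 0.0343). Both calls were lost without V3, without T5 or without T6 (adjusted p = 0.0956, 0.0766 and 0.0859 for Rps16, and 0.183, 0.114 and 0.0757 for Rps27). That of Rps27 was also lost without V1 (0.0599) or T4 (0.0893).

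The genes that fell were 2 paralogs and 2 core proteins. Rps27l, the paralog of Rps27 and a known p53 target (chr9:66853368-66856798, plus strand), was at 99.0, 121.2 and 116.2 against 92.2, 78.5 and 77.0 CPM. The groups did not overlap, and the log2 fold change was -0.44 (SE 0.084, adjusted p = 0.000255). Rps24, which is needed for processing of the small subunit rRNA and is mutated in some cases of Diamond-Blackfan anaemia, lies at chr14:24537193-24547027 on the plus strand. It was at 710.5, 904.8 and 860.7 against 740.5, 597.3 and 612.9 CPM. T4 lay above V1, so that the groups overlapped, and the log2 fold change was -0.34 (SE 0.093, adjusted p = 0.00424). The call was lost with library size only (-0.20, adjusted p = 0.0792) and upper quartile scaling (-0.20, adjusted p = 0.0749).

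Rpl7l1, a paralog of Rpl7 with a part in ribosome assembly (chr17:47084833-47093598, minus strand), was at 111.7, 113.2 and 115.8 against 97.1, 91.7 and 97.5 CPM. All HO + β-SITO libraries were lower, with a log2 fold change of -0.25 (SE 0.056, adjusted p = 0.00112). The call was lost with library size only (-0.10, adjusted p = 0.124) and upper quartile scaling (-0.11, adjusted p = 0.107). Rpl27, a large subunit protein (chr11:101333124-101336355, plus strand), was at 366.4, 445 and 355 against 334.2, 343.3 and 333.2 CPM. Its log2 fold change was -0.21 (SE 0.076, adjusted p = 0.0259). V2 was the highest library for Rpl27, and without V2 the value was -0.096 and did not pass the test (adjusted p = 0.161), as was the case without T5 (adjusted p = 0.081) or T6 (adjusted p = 0.086), and with library size only (adjusted p = 0.519) or upper quartile scaling (adjusted p = 0.487). Relative to the family total, the log2 fold changes of the 4 genes were -0.64 (Rps27l), -0.54 (Rps24), -0.45 (Rpl7l1) and -0.39 (Rpl27), and these 4 calls held without each library in turn.

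**Figure D3:**
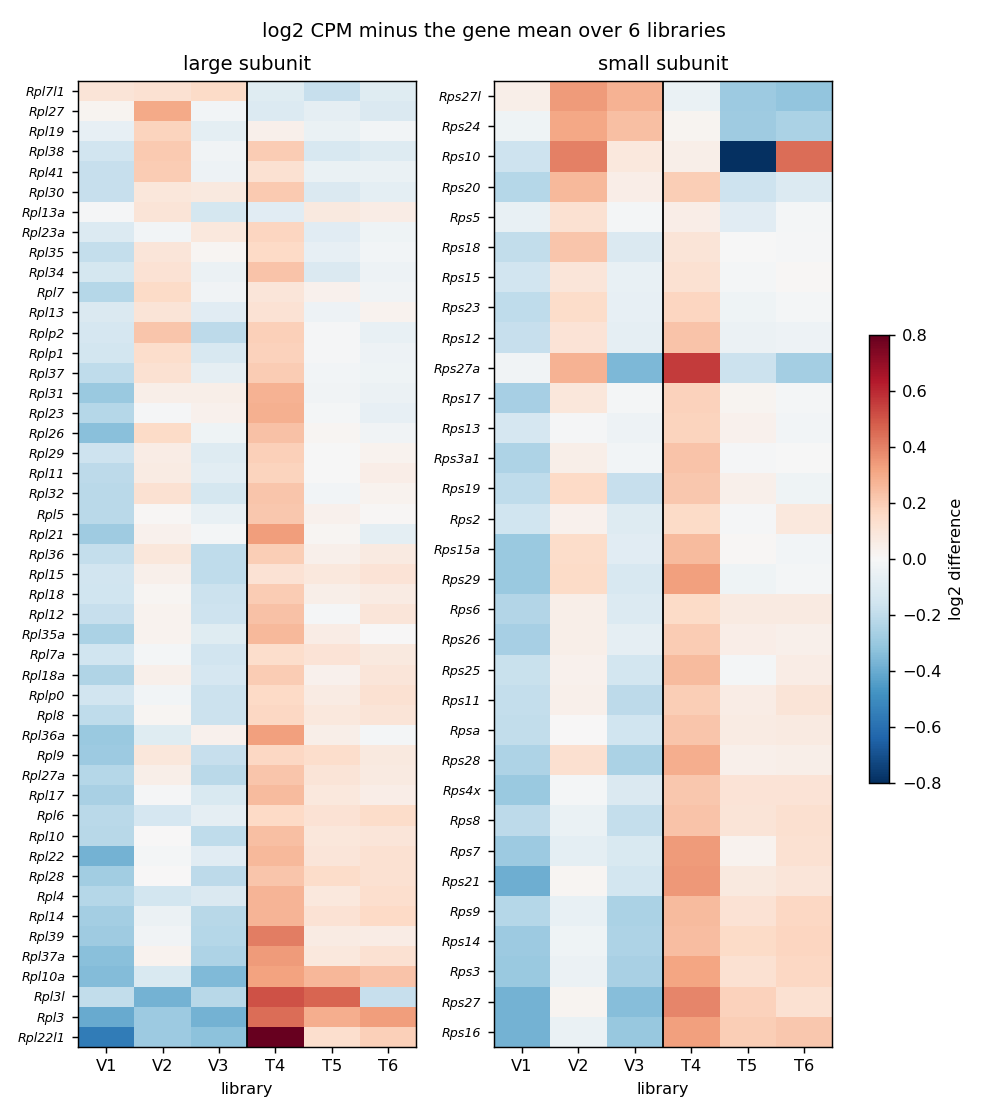
log2 CPM minus the gene's mean over the 6 libraries (colour, red above and blue below the mean, drawn at ±0.8 where larger) for the 80 genes tested, ordered by fold change within each subunit, with the groups parted by a line. Most rows turn from blue in V1 to red in T4, V2 is the reddest HO + Vehicle column, and the rows at the top (Rpl7l1, Rps27l) run the other way.

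The most abundant members per kilobase of transcript included genes that rose and genes that did not pass the test. The median level over the 80 genes was 487 CPM per kilobase, with the 10th and 90th percentiles at 107 and 834. Each length was that of a single transcript per gene, the longest of those annotated as principal where there were any. This gave 5179 bases for Rps15a and 3706 for Rps20, so these levels and their order depend on the transcript chosen. In the large subunit the highest were Rpl41, a short basic peptide, at 1404 (HO + Vehicle) and 1407 (HO + β-SITO) CPM per kilobase, followed by Rplp1 (1130 and 1202) and Rplp0 (1058 and 1240). In the small subunit they were Rps15 (1336 and 1409), Rps2 (1279 and 1421) and Rps14 (989.8 and 1284). Rps15 is a protein of the head, Rps2 lines the entry of the mRNA channel and Rps14 lies on the platform. The log2 fold change was 0.0030 for Rpl41, 0.077 for Rps15 and 0.15 for Rps2, none of which passed the test (adjusted p = 0.975, 0.351 and 0.0587). That of Rps14 was 0.38 (SE 0.070, adjusted p = 0.000222), with 723.4, 862.5 and 745 against 1047, 981.3 and 994.5 CPM and no overlap. Rps2 passed with DESeq2 (adjusted p = 0.0436) and limma-voom (adjusted p = 0.0389).

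The lateral stalk, which recruits translation factors, has Rplp0 at its base and Rplp1 and Rplp2 at its tips. Rplp0 was at 1400, 1533 and 1378 against 1740, 1624 and 1690 CPM. The groups did not overlap, and its log2 fold change was 0.23 (SE 0.063, adjusted p = 0.00451). Rpl12, also at the base, had a log2 fold change of 0.21 (adjusted p = 0.0203), with overlapping groups. The tip proteins Rplp1 and Rplp2 had values of 0.089 (adjusted p = 0.355) and 0.073 (adjusted p = 0.523). Both passed the test without V2 (0.19 and 0.22, adjusted p = 0.049 and 0.0316). The difference between base and tips was not tested.

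Rpl5 and Rpl11 form, with the 5S rRNA, the particle that can bind Mdm2 and so stabilise p53. Rpl5 was at 390.5, 455.4 and 434.1 against 526.5, 464.7 and 456.6 CPM, with a log2 fold change of 0.18 (adjusted p = 0.0405). Its highest HO + Vehicle library was barely below its lowest HO + β-SITO library, and the call was lost without V1, V3 or T4 (adjusted p = 0.103, 0.0522 and 0.159). Rpl11 had a log2 fold change of 0.15 (adjusted p = 0.0842), with overlapping groups, and passed the test without V2 (0.23, adjusted p = 0.0179) or T5 (0.22, adjusted p = 0.035).

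Rps6, the substrate of the S6 kinases, rose from 611.4 ± 60.4 to 698.3 ± 22.8 CPM (SD, n = 3 each), a log2 fold change of 0.19 (edgeR adjusted p = 0.0254). It lost its call without V1 (0.15, adjusted p = 0.065) or V3 (0.21, adjusted p = 0.0534). Rpsa, the laminin receptor protein at the mRNA exit, rose from 972 ± 73.8 to 1144 ± 70.3 CPM (SD, n = 3 each), by 0.24 (edgeR adjusted p = 0.00722). Rps27a, made as a fusion with ubiquitin, varied widely among libraries of a group, at 241.3, 298.3 and 192.1 against 362.9, 218.3 and 204.3 CPM. Its log2 fold change was 0.10 (SE 0.178, adjusted p = 0.629), and without T4 it was -0.21 (adjusted p = 0.0905).

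By place in the ribosome, all 3 proteins near the peptidyl transferase centre (Rpl3, Rpl8 and Rpl10) rose, with log2 fold changes of 0.24 to 0.71. All 3 at the mRNA exit (Rpsa, Rps26 and Rps28) also rose, by 0.19 to 0.25. Of 2 proteins at the mRNA entry (Rps2 and Rps3) 1 rose and none fell (edgeR, 0.15 and 0.40). Of 9 proteins around the exit of the peptide tunnel 4 rose and none fell (edgeR, median 0.14, range -0.028 to 0.36), and of 11 proteins of the small subunit head 2 rose and none fell (edgeR, median 0.10, range -0.13 to 0.49). Over all genes tested 33% were called higher and 33.8% lower. The low end of the head, -0.13, was that of Rps10, whose level is not read as expression (10 to 26 counts per library). Rpl39 and Rpl22, at the tunnel exit, rose by 0.36 (adjusted p = 0.00247) and 0.32 (adjusted p = 0.00327). These groups hold few genes and no difference between them was tested.

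The paralog pairs were compared as shares of the pair, a ratio that does not depend on how libraries are scaled. Rps27l held 32.3%, 30.7% and 35.4% of the counts of Rps27 and Rps27l in V1, V2 and V3, and 20.7%, 20.4% and 20.8% in T4, T5 and T6. The share in the HO + β-SITO group was nearly constant and far below every HO + Vehicle library. Rpl22l1 held 17.2%, 16.3% and 16.7% of its pair with Rpl22 against 26.3%, 19.5% and 19.9%, and its share was higher in every HO + β-SITO library than in any HO + Vehicle library. Rpl7l1 held 17.1%, 13.8% and 15.7% of its pair with Rpl7 against 12.5%, 12.4% and 13.5%, and the closest libraries of the groups were V2 and T6.

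A further 2 pairs had a low second gene. Rps4l, annotated as a transcribed processed pseudogene, held 5.76%, 5.68% and 5.36% of its pair with Rps4x against 2.37%, 2.74% and 2.58%. Its own log2 fold change was -0.89 (SE 0.081, adjusted p = 1.24e-07), while Rps4x rose by 0.29 (adjusted p = 0.00246). Rpl36al held 0.593%, 0.866% and 0.850% of its pair with Rpl36a against 0.314%, 0.353% and 0.279%, on 9 to 24 counts per library. Another row on the same strand covers 92.4% of Rpl36al, so its level and share are not read as expression.

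Each of these 5 differences had p = 0.1 in a two-sided exact permutation test over 3 against 3 libraries, and 0.12 after Benjamini-Hochberg adjustment over the 6 pairs. Groups without overlap were common for single genes in this contrast, at 34.8% of all genes tested higher and 35.8% lower. The remaining pair was Rpl3 with Rpl3l, the paralog that is typical of adult heart and skeletal muscle. Rpl3l was nearly absent in both groups, with 9, 8 and 9 counts in V1, V2 and V3 and 18, 16 and 11 in T4, T5 and T6. Only the HO + β-SITO group took it past the minimum of 10 counts, so the direction of its change cannot be separated from the filter. It made up 0.0625% to 0.103% of the pair in all libraries (p = 0.6, exact permutation test), and its log2 fold change of 0.55 (SE 0.352) did not pass the test (adjusted p = 0.182).

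**Figure D4:**
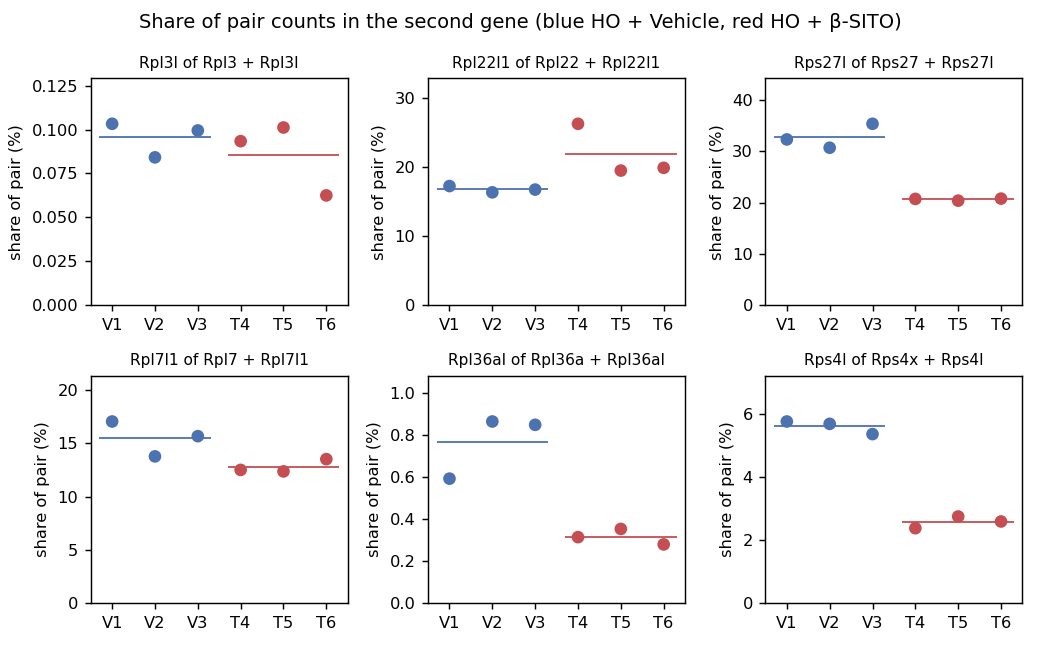
Share of the pair's counts (%, y axis, from 0 and scaled per panel) held by the second gene of 6 paralog pairs in each library, with group means as lines (blue, HO + Vehicle; red, HO + β-SITO). The groups are apart in 5 panels and overlap for Rpl3l. The gap is widest in percentage points for Rps27l (32.8% against 20.6% on average). As a ratio it is largest for Rpl36al (0.770% against 0.315%), whose level is not read as expression. Among single genes, 34.8% of all tested had HO + β-SITO levels all above and 35.8% all below HO + Vehicle.

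A few members were limited by the counting. Rps10, a core protein of the small subunit, had 108 counts over the 6 libraries against 15317 for the 4 pseudogenes named after it, or 0.7% of their sum. The pseudogene Rps10-ps2 had 2017, 2384 and 2102 counts in V1, V2 and V3 and 2969, 2656 and 2921 in T4, T5 and T6. For the 63 members with pseudogenes named after them the median share of the parent was 99.6%, and it was over 90% for 52. After Rps10 the lowest were Rpl21 (60.4%), Rpl14 (70.9%) and Rps7 (73.1%). For these genes reads of the parent and its copies cannot be told apart here. Summed over 321 pseudogene rows, counts per 1000 member counts were 33.6 to 34.1 under HO + Vehicle and 33.6 to 33.8 under HO + β-SITO (p = 0.5, exact permutation test).

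Annotation overlap was a second limit. In 3 members another row on the same strand covered at least 50% of the gene's interval, namely Rpl24 (98.7%), Rpl13a (88.6%) and Rps10 (76.9%), and the covering rows had 0 counts. Rpl24 had 27 counts over the 6 libraries and Rpl13a 3316, with 31.4 ± 2.64 and 32.1 ± 2.06 CPM in the groups (SD, n = 3 each). The low values of these core genes were noticed in the table, and Rps10 and Rpl24 were named after their values were seen. Levels of these 3 genes are therefore not read as expression. Outside the naming rule, Rpl36al was covered to 92.4% by a row with 0 counts, and its level is not read as expression either.

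The transcript starts of the members were looked up to see how many carry the TOP sequence. RefSeq start windows on GRCm38.p6 were found by symbol for 63 of the 83 members, 60 of them tested. Windows of 15 bases before and 15 bases from the start are shown for genes above the family total with a listed start (Rps16, Rps27, Rpl10a, Rpl22l1), for genes below it (Rpl27, Rps24, Rps27l, Rpl7l1) and for Rps6 and Rpl15 as members with a TOP start. Capitals mark the longest run of C and T, and for Rpl10a, Rps24 and Rps27l, with 2 listed starts each, the one further upstream is shown.
Rps6, chr4:86857353-86857382, minus strand: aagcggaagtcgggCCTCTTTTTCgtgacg
Rpl15, chr14:18270972-18271001, minus strand: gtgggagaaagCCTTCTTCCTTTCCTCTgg
Rps27, chr3:90213634-90213663, minus strand: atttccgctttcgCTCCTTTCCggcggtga
Rps16, chr7:28350674-28350703, plus strand: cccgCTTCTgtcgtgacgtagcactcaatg
Rpl10a, chr17:28328456-28328485, plus strand: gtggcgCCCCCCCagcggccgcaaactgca
Rpl22l1, chr3:28805493-28805522, plus strand: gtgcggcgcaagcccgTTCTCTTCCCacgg
Rpl27, chr11:101442230-101442259, plus strand: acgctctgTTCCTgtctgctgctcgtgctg
Rps24, chr14:24490663-24490692, plus strand: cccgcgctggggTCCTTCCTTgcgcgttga
Rps27l, chr9:66946071-66946100, plus strand: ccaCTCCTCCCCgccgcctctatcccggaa
Rpl7l1, chr17:46782642-46782671, minus strand: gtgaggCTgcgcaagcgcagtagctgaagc

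The run of C and T lies across the annotated start in Rps6, Rpl15, Rps27 and Rps24, begins just after it in Rpl22l1 and ends before it in Rps16, Rpl10a, Rpl27, Rps27l and Rpl7l1. A C followed by at least 4 C or T at the start was present in 13 of the 60 tested members (21.7%) and in 3.01% of 27025 genes. Of the members that rose 7 of 32 had it, of those that fell 0 of 4, and of the others 6 of 24. The listed start may lie a few bases from the true one, so a missing match says only that these letters are not at that base. In windows of 250 bases before and 50 bases from the start, on either strand, CCGGAAG was found in 41.7% of the members and 9.93% of all genes, and CCATNTT in 31.7% and 18.2%. CCGGAAG was in 10 of the 32 members that rose, 1 of the 4 that fell and 14 of the 24 others. For CCATNTT these counts were 12, 1 and 6. Differences between these sets were not tested.

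Genes that make or use ribosomes were compared with the family, in lists described by counts and medians. The shares over all genes tested, to set beside these counts, were 33% called higher and 33.8% lower. Of the ribosomal proteins outside the naming rule, 2 rose and 1 fell. Fau, whose product is the fusion of a ubiquitin-like protein with a small subunit protein, rose by 0.32 (SE 0.085, adjusted p = 0.00375) and Rack1, the scaffold protein on the small subunit head, by 0.31 (SE 0.065, adjusted p = 0.000558). Rpl36al, the paralog of Rpl36a, had a log2 fold change of -1.07 (SE 0.334, adjusted p = 0.011, lost without V3 at 0.0673). Because of the annotation overlap given above, this fall is not read as a change in expression. Of 16 other TOP mRNAs 8 rose and 1 fell, with a median of 0.16. Those with the largest rise were Eif4b, which helps unwind mRNA, with 0.86 (SE 0.066, adjusted p = 1.72e-08), and the elongation factor Eef2. Eef2 went from 2187, 2105 and 2000 to 3587, 3472 and 3565 CPM, by 0.76 (SE 0.060, adjusted p = 2.41e-08). The one that fell was Pabpc1, the poly(A)-binding protein, with -0.28 (SE 0.059, adjusted p = 0.000636). Its call was lost with library size only (-0.13, adjusted p = 0.0588).

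Ribosome assembly factors went the other way. Of 52 genes tested, 45 fell and 1 rose, with a median log2 fold change of -0.51, against 33.8% of all genes called lower and 33% higher. Eif6, which keeps the large subunit from joining too early, was at 94.8, 105.9 and 93.5 against 35.6, 33.3 and 34.2 CPM, a log2 fold change of -1.51 (SE 0.068, adjusted p = 2.34e-11). Rrs1, which acts in large subunit assembly, fell from 128.4, 127.3 and 131.6 to 51.8, 46.9 and 46.3 CPM, a log2 fold change of -1.42 (SE 0.062, adjusted p = 1.72e-11). The libraries of each gene lay close together within a group, with a wide gap between the groups. The factor that rose was Nop10, a protein of the H/ACA snoRNA particles (0.61, adjusted p = 3.21e-05). Of 5 chaperones of ribosomal proteins 4 fell, with Bccip at -0.68 (adjusted p = 7.65e-07) and Tsr2, the chaperone of Rps26, at -0.56 (adjusted p = 1.98e-05).

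RNA polymerase I genes, which make the rRNA precursor, gave 6 lower and 1 higher of 15 tested (median -0.17), against 33.8% of all genes called lower. Taf1a and the transcription factor Myc fell by 0.57 (adjusted p = 0.00355) and 0.47 (adjusted p = 3.83e-05) on the log2 scale, and Polr1c rose by 0.29 (adjusted p = 0.00478). Mitochondrial ribosomal proteins, which form the ribosome of the organelle, gave 44 lower and 3 higher of 77 tested, with a median of -0.24. Mrpl27 fell by 1.14 (adjusted p = 1.41e-08) and Mrpl38 by 1.02 (adjusted p = 1.83e-08), while Mrpl34 rose by 0.62 (adjusted p = 4.09e-05) and Mrps26 by 0.29 (adjusted p = 0.00988).

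Of 15 mTORC1 and TOP regulators 10 fell and 3 rose (median -0.36), against 33.8% of all genes called lower and 33% higher. Larp1, which binds the TOP sequence, fell from 304.2, 265.5 and 288.5 to 169.7, 161.1 and 160.9 CPM, by 0.80 on the log2 scale (SE 0.063, adjusted p = 1.84e-08), and Mlst8, an mTORC1 subunit, by 0.60 (adjusted p = 4.67e-05). Deptor, an inhibitor of mTOR, rose from 7.77, 8.02 and 8.31 to 28.9, 32.3 and 31.1 CPM, by 1.94 (SE 0.089, adjusted p = 3.14e-11), and the translation repressor Eif4ebp2 by 0.73 (adjusted p = 2.22e-08). The genes of this list that moved include both activators and inhibitors of the pathway.

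Of 11 p53 pathway genes 9 fell and 1 rose (median -0.32). Eda2r and Cdkn1a, targets of p53, fell by 1.79 (adjusted p = 1.35e-11) and 1.57 (adjusted p = 1.44e-12) on the log2 scale, as Rps27l did, and Sesn1, another target, rose by 1.94 (adjusted p = 1.8e-12). Of 13 ribosome quality control genes 4 fell and 1 rose (median -0.17), near the 33.8% of all genes called lower, with Rnf14 at -1.25 (adjusted p = 9.79e-11), Edf1 at -1.04 (adjusted p = 5.34e-10) and Hbs1l at 0.17 (adjusted p = 0.0424). The call for Hbs1l was lost with DESeq2 (adjusted p = 0.0808) and without V1, V2, T4 or T6 (adjusted p = 0.0569 to 0.179). Of 6 tested snoRNA host genes, which are long noncoding RNAs, 4 rose and none fell (median 0.69), against 33% of all genes called higher. Snhg12 was at 1.39 (adjusted p = 1.6e-07) and Snhg8 at 0.91 (adjusted p = 1.89e-05).

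**Figure D5:**
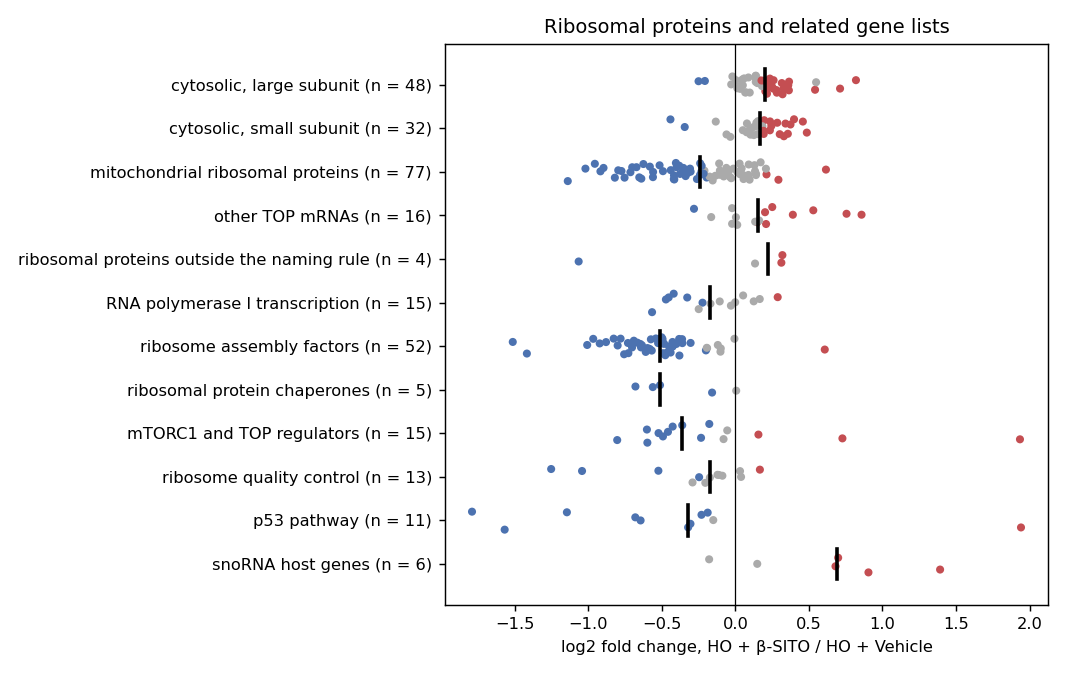
log2 fold change (HO + β-SITO over HO + Vehicle, x axis) of each tested gene of the ribosomal protein subunits and of 10 related lists, with genes that rose in red, genes that fell in blue, the others in grey and the list's median as a black bar; vertical scatter within a row has no meaning. The cytosolic subunits sit just right of 0 (medians 0.20 and 0.17), while assembly factors (-0.51) and mitochondrial ribosomal proteins (-0.24) sit left of it.

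Fold changes of the members were weakly related to transcript length and GC content. Over the 78 members above 10 CPM, the log2 fold change had a correlation across genes of r = -0.030 and rho = 0.10 with log2 length and of r = -0.090 and rho = -0.16 with GC content, values that share the same 6 libraries. The median was 0.16 in the shortest, 0.15 in the middle and 0.21 in the longest group of 26 members each. Across the same genes, V2 minus the mean of V1 and V3 had r = -0.22 and rho = -0.32 with log2 length. For T4 minus the mean of T5 and T6 the values were r = -0.16 and rho = -0.24. All these values depend on the transcript chosen for each gene.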

How the data were processed

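RNA-seq of 6 libraries of NMCMs was analysed. The authors aligned reads with HISAT2 and made gene counts with featureCounts on GRCm39, per the submitters' processing notes, and deposited raw counts for all libraries in 1 table, without normalization. Tool versions and the counting options (strand, reads that match several places) are not given in the sources used here, so reads shared with pseudogenes or overlapping genes may be lost or split. The paper names an ABclonal kit and the sample records an Illumina kit. The names of the HO + β-SITO libraries carry a suffix, and a separate preparation, if any, cannot be told apart from the treatment.

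Groups came from the sample labels. From the counts, 14799 genes that passed filterByExpr were tested with edgeR 4.0.16 (R 4.3.3): TMM, quasi-likelihood test with group as the only term, Benjamini-Hochberg over all genes tested, call at an adjusted p under 0.05. The more than 2-fold threshold of the study was a second rule. TMM factors were 0.945 to 0.956 and 1.05 to 1.055, and the biological coefficient of variation was 6.52%. A second fit used the sum of member counts as library size. CPM used TMM library sizes. Levels per kilobase used the length of a single GENCODE vM21 transcript per gene, the longest principal one where annotated, matched by gene ID. Shares were compared with two-sided exact permutation tests. The scripts were tested on simulated data.

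Members and lists were chosen with earlier results of these data known. Values per library follow this rule: per subunit, the 3 largest called changes each way relative to the family total and the 3 most abundant members per kilobase, the paralog pairs, 9 members with known roles, genes outside the naming rule and the 2 most changed genes each way of each list. Alternatives were DESeq2 1.42.0, limma-voom (limma 3.58.1), other scalings, filters and denominators, and leaving out each library. Leaving out V2 and T4 together and adding pseudogene counts to their parents were added after seeing the data. A gene of the related lists is not reported here.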

Additional observations from a re-analysis of the deposited data

How the results depend on the processing

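The direction of the family held under every scaling, filter, test and left-out library that was run, and the count of genes did not. With library size only and with upper quartile scaling 63 members were higher and 1 lower, with medians of 0.336 and 0.33. These scalings move the median of all genes to 0.141 and 0.136, and the distance of the members' median from it was 0.195 and 0.194, against 0.195 with TMM. With the more than 2-fold rule 0 members were higher and 0 lower. DESeq2 and limma-voom each gave 41 higher and 4 lower. Genes of the related lists called higher were 43 with library size only, 41 with upper quartile scaling and 3 with the more than 2-fold rule, which left 11 lower. Leaving out 1 library gave 31 to 50 members higher and 3 to 4 lower. Relative to the family total, leaving out 1 library gave 2 to 8 members higher (2 without V3, 3 without T5 or T6 and 8 without V2) and 4 to 7 lower (7 without V2), and leaving out V2 and T4 together gave 11 and 13, among them all 5 and all 4 of the full set. The cause was not tested. With library size only and upper quartile scaling the falls of Rpl7l1 (-0.102 and -0.107), Rpl27 (-0.059 and -0.064) and Rps24 (-0.196 and -0.201) did not pass the test. Values near 0 changed sign when libraries were left out: the difference in pseudogene counts per 1000 member counts (-0.264 to 0.00842, the latter without V3), that in the share of Rpl3l (-0.0177 to 0.00161 percentage points, the latter without T6), and the log2 fold changes of Rpl41 (-0.06 to 0.12, with -0.057 without T4), Rpl7 (-0.009 to 0.163), Rplp2 (-0.006 to 0.221), Rpl13a (-0.006 to 0.095) and Rps27a (-0.206 to 0.28, with -0.02 without V3 and -0.038 without V2 and T4). Relative to the total, so did Rpl36a (-0.02 to 0.137, with -0.012 without T4 and -0.072 without V2 and T4), Rpl5 (-0.039 to 0.009) and Rps6 (-0.015 to 0.029, with -0.008 without V1 or T6). Rps27a relative to the total also changed sign (-0.339 to 0.025), and its call changed. With all libraries it did not pass the test (-0.102, edgeR adjusted p = 0.534). It passed as a fall without T4 (-0.339, adjusted p = 0.0226) and without V2 and T4 (-0.253, adjusted p = 0.0199). No paired analysis was possible because the labels number the replicates from V1 in one group and from T4 in the other, with no number in common. With 3 libraries a group, single values cannot pass p = 0.1 in an exact permutation test.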
